A study of Drosophila melanogaster with 5 samples.

Results

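The genes described here encode ion channels of Drosophila melanogaster: voltage-gated, calcium-activated and inward rectifier channels, channels of the TRP family and ligand-gated receptor channels. They were listed by name, and all 37 were found by symbol among the 17684 annotated genes of the main chromosome arms; 8 lie on X and 29 on autosomes. A gene counted as having a peak when a called peak of the RNA helicase Maleless (MLE) shared at least 1 bp with its annotated dm6 extent widened by 500 bp on each side. MLE was mapped by CUT&RUN, in which an antibody tethers a nuclease to the protein and the DNA cut free is sequenced. Female embryos of 3 kinds were used. The clampRNAi embryos (1 library, 0-2 h) came from MTD-GAL4>CLAMPRNAi mothers, carrying the UAS-CLAMPRNAi[val22] hairpin, which is directed against the maternal supply of CLAMP, a DNA-binding zinc finger protein of GA repeats; the depletion cannot be checked from peak lists. The later control embryos (2 libraries, 2-4 h, after the maternal-to-zygotic transition) and the early control embryos (2 libraries, 0-2 h, before it) came from MTD-GAL4>GFPRNAi mothers. MTD-GAL4 drives expression in the female germ line, and in all groups a meiotic drive stock (SD72/CyO and its partner stock) was used so that fathers passed on sperm with an X alone. Each library pooled embryos from timed egg-layings.

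Ion channels let ions cross the cell membrane and set the electrical activity of neurons and muscles. Sodium and potassium channels shape the action potential, calcium channels trigger transmitter release, and ligand-gated channels receive the transmitter on the next cell. Most of these genes are known for their work in differentiated neurons, which embryos of these ages do not yet have, and many are long genes with large introns. MLE is known as a subunit of the male dosage compensation complex on X and also acts on RNA in females. Peak lists record where MLE was called on DNA and measure no RNA.

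The 5 lists held 493 peaks in the clampRNAi library, 370 and 1589 in 2-4 h control replicates 1 and 2, and 723 and 1247 in 0-2 h control replicates 1 and 2. Peaks were narrow in 4 of the lists, with median widths of 81 bp after clampRNAi, 82 bp in 2-4 h replicate 1 and 100 bp and 110 bp in the 0-2 h controls. 2-4 h replicate 2 stood apart, with a median width of 2190 bp. The sequencing depth behind each list is unknown, and libraries made without the antibody were not used here. Each peak was given its percentile by total signal among the peaks of its own list, the strongest being at 100. Percentiles depend on how many peaks a list holds, so a higher value in another library is not a measured change.

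MLE peaks were called at 11 of the 37 channel genes in at least 1 library, and 6 genes had a peak in all 5 libraries: the sodium channel gene para, the potassium channel genes Sh, SK and slo, the calcium channel gene Ca-alpha1T and the acetylcholine receptor gene nAChRalpha3. All of these except slo, on 3R, lie on X. The recurrent peaks of para lay within a smaller gene nested in it, Cnx14D. Peaks were called at 7 channel genes after clampRNAi, where 1.85% of all annotated genes had one. The later controls had peaks at 6 and 10 channel genes, against 1.52% and 6.08% of all genes in replicates 1 and 2. The early controls had peaks at 8 and 10, against 2.53% and 4.08% of all genes. Over all annotated genes, 1.21% had a peak in all 5 libraries. The 11 genes with a peak in any library are 7 of 8 on X, beside 65.8% of 190 other coding genes of 20 kb or more there. The rest are 4 of 14 autosomal channel genes of that length, beside 38.0% of 800 others. None of the 15 shorter autosomal ones had a peak, beside 5.08% of 10896. Gene length and chromosome go with these counts: the 6 genes with a peak in every library are 49.1 kb to 138.9 kb long, while the 26 genes with no peak have a median length of 16.9 kb.

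**Figure D1:**
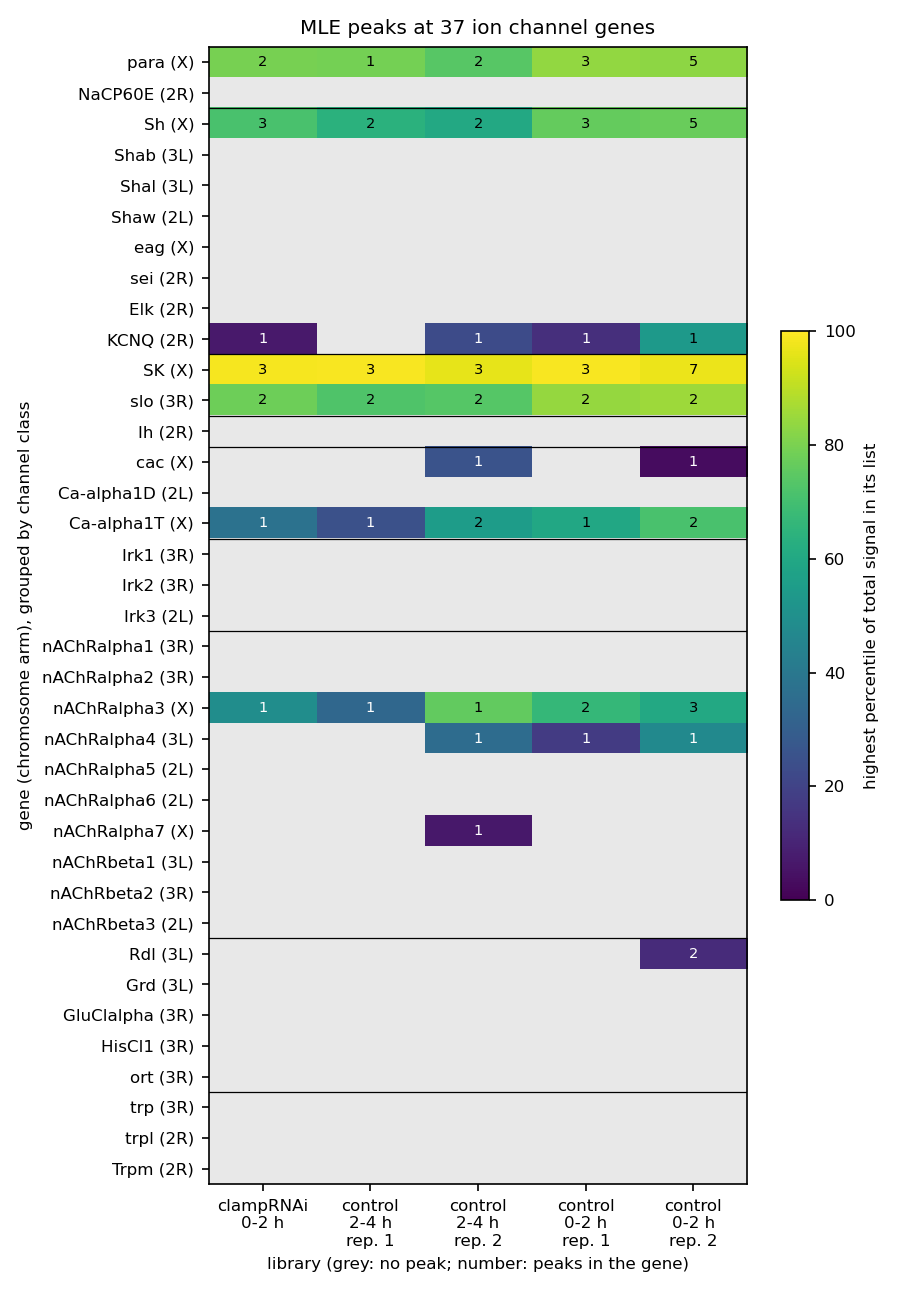
Channel genes (rows, with chromosome arm, grouped by channel class) against the 5 libraries (columns). Colour gives the highest percentile of total signal that a peak of the gene reached in its list, the number counts the peaks in the gene, and grey marks no peak; para, Sh, SK, slo, Ca-alpha1T and nAChRalpha3 are coloured in all 5 columns, and 26 genes are grey throughout.

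Set beside protein-coding genes of similar length on the same arm, the 37 channel genes together had peaks in slightly more cases in every library, by amounts inside the counting error. The 8 on X were above the comparison by 0.66 to 2.30 genes. The 29 on autosomes differed from it by -1.41 to 0.43 genes and were above it only in 0-2 h replicate 1. For each channel gene the comparison genes were those with 0.5 to 2 times its length, 37 to 1804 per gene, and the shares of them with a peak were averaged. After clampRNAi 18.9% of channel genes had a peak (7 genes, exact 95% interval 7.96% to 35.2%), and the comparison genes gave 14.9%, or 5.52 genes. In the later controls the shares were 16.2% (6.19% to 32.0%) and 27.0% (13.8% to 44.1%), and the comparison genes gave 12.4% and 24.6%. In the early controls they were 21.6% (9.83% to 38.2%) and 27.0% (13.8% to 44.1%), and the comparison genes gave 16.8% and 25.3%. The channel genes were thus 0.64 to 1.79 genes above the comparison in the 5 libraries, and the comparison share lay inside the interval each time. Peaks in all 5 libraries were found at 6 channel genes, 16.2% (6.19% to 32.0%), where the comparison genes gave 10.6%. These intervals cover counting error over 37 genes only.

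**Figure D2:**
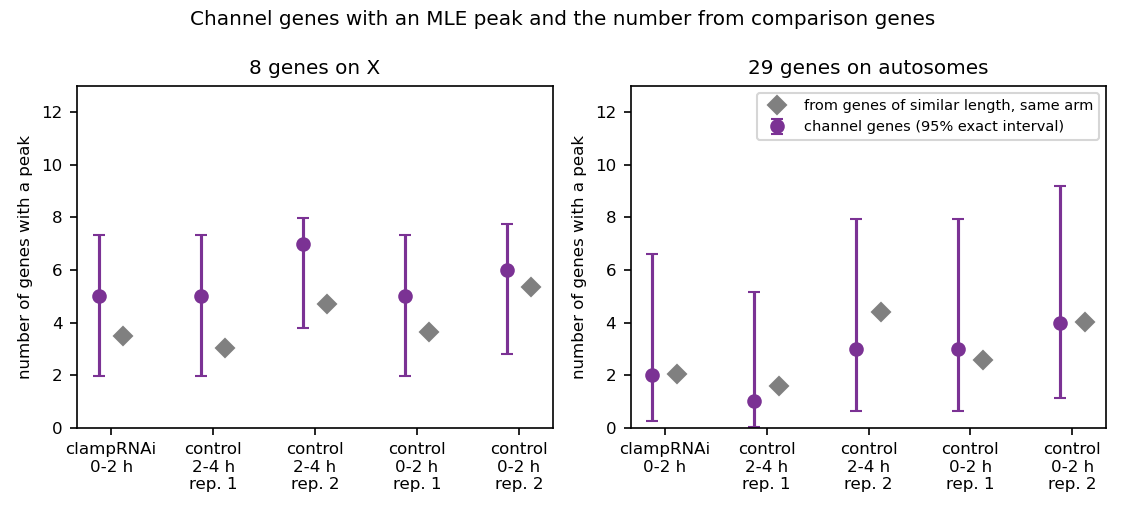
Number of channel genes with a peak in each library (circles, with exact 95% intervals) and the number given by protein-coding genes of 0.5 to 2 times the length on the same arm (diamonds), for the 8 genes on X (left) and the 29 on autosomes (right). On X the circles at 5 to 7 genes lie above the diamonds at 3.02 to 5.34, inside wide intervals; on autosomes the diamonds at 1.58 to 4.41 lie inside the intervals, on either side of the circles at 1 to 4.

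The 8 channel genes on X had peaks in 5 cases after clampRNAi, in 5 and 7 cases in the later controls and in 5 and 6 cases in the early controls. Genes of similar length on X gave 3.49 after clampRNAi, 3.02 and 4.70 in the later controls and 3.64 and 5.34 in the early controls. The 29 autosomal channel genes had peaks in 2 cases after clampRNAi, in 1 and 3 cases in the later controls and in 3 and 4 in the early controls, and their comparison genes gave 2.03, 1.58 and 4.41, and 2.57 and 4.02 in the same order. Every X channel gene is longer than 20 kb. Among the 190 other protein-coding genes of 20 kb or more on X, 39.5% had a peak after clampRNAi, 33.7% and 46.8% in the later controls and 43.7% and 58.4% in the early controls. The closer match by length given above had a higher share in each library, from 37.8% in 2-4 h replicate 1 to 66.8% in 0-2 h replicate 2. On autosomes, none of the 15 channel genes under 20 kb had a peak in any library, where 5.08% of 10896 other protein-coding genes of that length had one. Of the 14 longer channel genes 4 had a peak in at least 1 library, beside 38.0% of 800 other autosomal genes of that length.

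**Figure D3:**
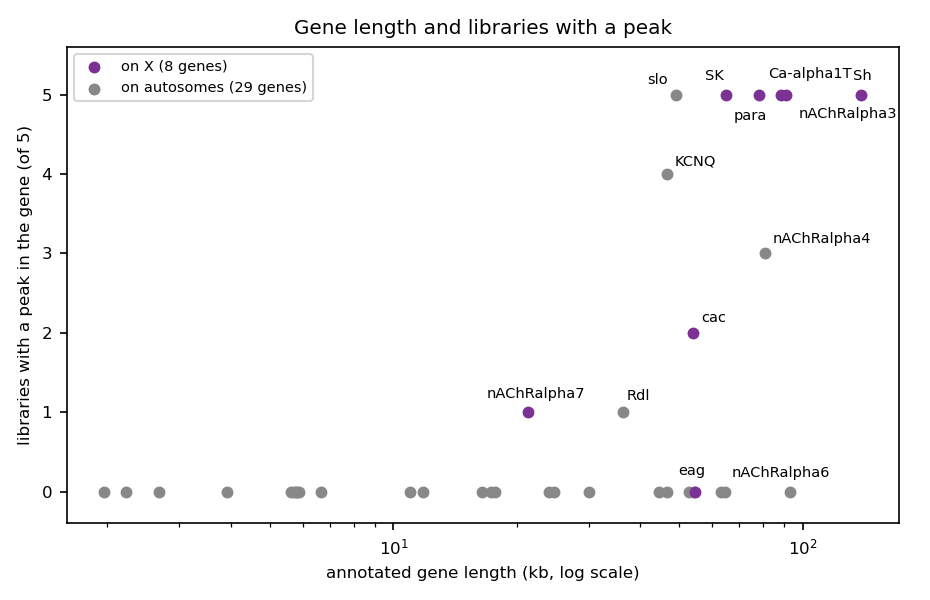
Annotated gene length (kb, log scale) against the number of libraries, of 5, with a peak in the gene, for channel genes on X (purple) and on autosomes (grey). All genes with a peak in 5 libraries are over 49 kb long, while eag on X (54.5 kb) and nAChRalpha6 on 2L (92.9 kb) have none.

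Both calcium-activated potassium channel genes had peaks in every library, and SK had the channel gene peak of highest rank in each. For any library, genes of similar length on the same arms gave 1.18 of the 2. A peak in all 5 libraries was found at 30.9% of the genes compared with SK and at 8.89% of those compared with slo. SK (X, 5340236 to 5405138) encodes the small-conductance channel that calcium opens after an action potential. Its strongest peak spanned 5350323 to 5350422 after clampRNAi, 5350327 to 5350423 in 2-4 h replicate 1, 5350327 to 5350425 in 0-2 h replicate 1 and 5350319 to 5350469 in 0-2 h replicate 2. In 2-4 h replicate 2 a peak of 2247 bp covered it. It stood at a percentile of 98.8 after clampRNAi, of 98.9 and 96.3 in the later controls and of 99.2 and 97.1 in the early controls. By total signal it was the 7th peak of the clampRNAi list, the 5th and 59th of the later lists and the 7th and 37th of the early lists. The authors' maximum signal there was 6392 after clampRNAi, 9411 and 10658 in the later controls and 11293 and 19339 in the early controls, on scales of unknown depth.

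SK held further, weaker peaks. A region at 5398707 to 5398919 in the 4 narrow lists was called in all 5 libraries, at percentiles of 41.2 after clampRNAi, 21.9 and 40.1 in the later controls and 40.5 and 62.3 in the early controls. A site ending at 5382795 in each of its libraries was called in all but 2-4 h replicate 2, at percentiles of 2.43 to 52.0. In 0-2 h replicate 2, SK carried 7 peaks, against 3 in each other library. At its upper end a region was called in both replicates 2 alone, and the 979 bp peak of 2-4 h replicate 2 there also touched the neighbouring gene NAAT1.

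slo encodes the large-conductance potassium channel that opens to voltage and calcium together, and it was the autosomal channel gene with the strongest peaks (3R, 24662491 to 24711595). The first of its 2 peaks began at 24693000 after clampRNAi and at 24693006, 24693004 and 24693006 in 2-4 h replicate 1 and 0-2 h replicates 1 and 2. Its percentiles were 77.9 after clampRNAi, 72.4 and 73.7 in the later controls and 84.4 and 85.5 in the early controls. The second, near 24699436 to 24699518, stood at 67.3 after clampRNAi, at 57.8 and 40.7 in the later controls and at 72.3 and 73.1 in the early controls. No library called any other peak in slo, and the maxima of both peaks lay more than 12 kb from either end of the gene.

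Among voltage-gated potassium channel genes, 2 of 8 had peaks in any library, where genes of similar length on the same arms gave 3.19. Sh (X, 17924307 to 18063247), whose Shaker channel gives the fast A-type current, is the longest of the channel genes at 138.9 kb. A peak starting at 17947248 or 17947249 in the 4 narrow lists stood at percentiles of 67.1 after clampRNAi, 64.1 and 60.3 in the later controls and 76.3 and 76.8 in the early controls. A second peak, 88.6 kb further along, ended at 18035954 in all 5 libraries and was narrow even in 2-4 h replicate 2, at 91 bp. Its percentiles were 71.4 after clampRNAi, 50.8 and 42.8 in the later controls and 75.2 and 77.2 in the early controls. Between them lay a weaker peak, starting at 17995053 to 17995082, that was called after clampRNAi and in both early controls, at percentiles of 17.0, 43.3 and 51.4, and in neither later control.

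KCNQ, on 2R, encodes the channel of the slow M-type current. A narrow peak near the middle of the gene was called after clampRNAi at a percentile of 6.69 and in the early controls at 13.4 and 53.8, with maxima within 1 bp of each other. 2-4 h replicate 1 had no peak in KCNQ, and the peak of 2-4 h replicate 2 was a different one, 4979 bp wide, at a percentile of 22.8 and with a maximum signal of 9. Counted by position rather than by gene, KCNQ therefore shared no peak between the stages. Shab, Shal, Shaw, eag, sei and Elk, the other voltage-gated potassium channel genes listed, had no peak. eag was the channel gene on X without a peak, and the nearest one was 13.2 kb from its end.

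The sodium channel gene para (X, 16455027 to 16533096), which encodes the main channel of the action potential in flies, had a pair of neighbouring peaks. The stronger began at 16523469 or 16523470 in the 4 narrow lists and stood at percentiles of 79.5 after clampRNAi, 78.9 and 74.1 in the later controls and 84.0 and 83.0 in the early controls. The weaker, at about 16523005 to 16523149, was called after clampRNAi and in both early controls at percentiles of 22.7, 14.1 and 65.0, was not called in 2-4 h replicate 1, and fell within the 1090 bp peak of 2-4 h replicate 2. Both peaks lie inside Cnx14D (X, 16522967 to 16525415), a calnexin gene nested in para's annotated extent, apart from the lower edge of the broad peak in 2-4 h replicate 2, so they cannot be told apart as peaks of para or of Cnx14D. A site at 16476687 to 16476765 was called in the early controls alone, at 1.94 and 46.4. NaCP60E, on 2R, a relative of the sodium channels, had no peak. Thus 1 of the 2 genes of this class had a peak in any library, where genes of similar length on the same arms gave 1.08.

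Of the 3 voltage-gated calcium channel genes, Ca-alpha1T (X, 6104085 to 6192483), for the low-voltage T-type channel, had a peak in every library. It began at 6165974 after clampRNAi, in 2-4 h replicate 1 and in 0-2 h replicate 1, and at 6165966 in 0-2 h replicate 2. Its percentiles were 37.6 after clampRNAi, 24.9 and 45.8 in the later controls and 60.0 and 71.5 in the early controls. Another position in the gene was called in both replicates 2 alone, at percentiles of 55.2 (2-4 h) and 56.6 (0-2 h). cac, for the channel that triggers transmitter release, had a peak in the same pair of libraries, but at places 42.8 kb apart and at percentiles of 25.5 (2-4 h) and 3.21 (0-2 h). Ca-alpha1D, for the L-type channel, had none. Thus 2 of the 3 had a peak in any library, where genes of similar length on the same arms gave 1.77.

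Of the 10 nicotinic acetylcholine receptor subunit genes, whose products carry fast excitatory transmission in the fly brain, 3 had peaks in any library, where genes of similar length gave 3.25. nAChRalpha3 (X, 8276200 to 8367169) was counted in every library but not at the same place. A peak ending at 8363161 or 8363165 was called after clampRNAi, in 2-4 h replicate 1 and in both early controls, at percentiles of 49.1, 33.2, 66.5 and 60.3. In 2-4 h replicate 2 the peak of nAChRalpha3 lay 69.0 kb away, was 3255 bp wide and stood at 76.0. That percentile ranks total signal over the whole width. The maximum signal of this peak was 52, where the median maximum of its list was 53. nAChRalpha4 (3L, 80.8 kb) had a peak in 2-4 h replicate 2 and 0-2 h replicate 2 at maxima within 1 bp of each other, inside the nested gene lncRNA:CR46475. These stood at percentiles of 35.5 (2-4 h) and 47.3 (0-2 h). 0-2 h replicate 1 called another peak in nAChRalpha4, at a percentile of 17.4. nAChRalpha7, on X, was counted through 1 broad peak of 2-4 h replicate 2 that crossed its lower end and had its maximum outside the gene. The alpha1, alpha2, alpha5, alpha6, beta1, beta2 and beta3 subunit genes had no peak, although nAChRalpha6 is the second longest channel gene at 92.9 kb.

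Among the 12 genes for receptors of inhibitory transmitters, TRP channels, the hyperpolarisation-activated channel and inward rectifiers, 1 had a peak in any library, where genes of similar length on the same arms gave 1.92. Rdl, the GABA receptor gene on 3L, had 2 peaks in 0-2 h replicate 2 alone, at percentiles of 6.82 and 12.1. Grd, GluClalpha (the glutamate-gated chloride channel) and the histamine receptor genes HisCl1 and ort had none. None was called at trp or trpl, which carry the light response of the eye, at Trpm, at the hyperpolarisation-activated channel gene Ih or at the inward rectifier genes Irk1, Irk2 and Irk3. Irk3 lay just outside the 500 bp limit, with a peak of 2-4 h replicate 2 at 793 bp, and no gene was counted through the 500 bp flank alone, since every library kept its count without it. Of the 26 genes without a peak, 8 are over 40 kb long. The distance of the 26 to the nearest peak of any library had a median of 13.9 kb.

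**Figure D4:**
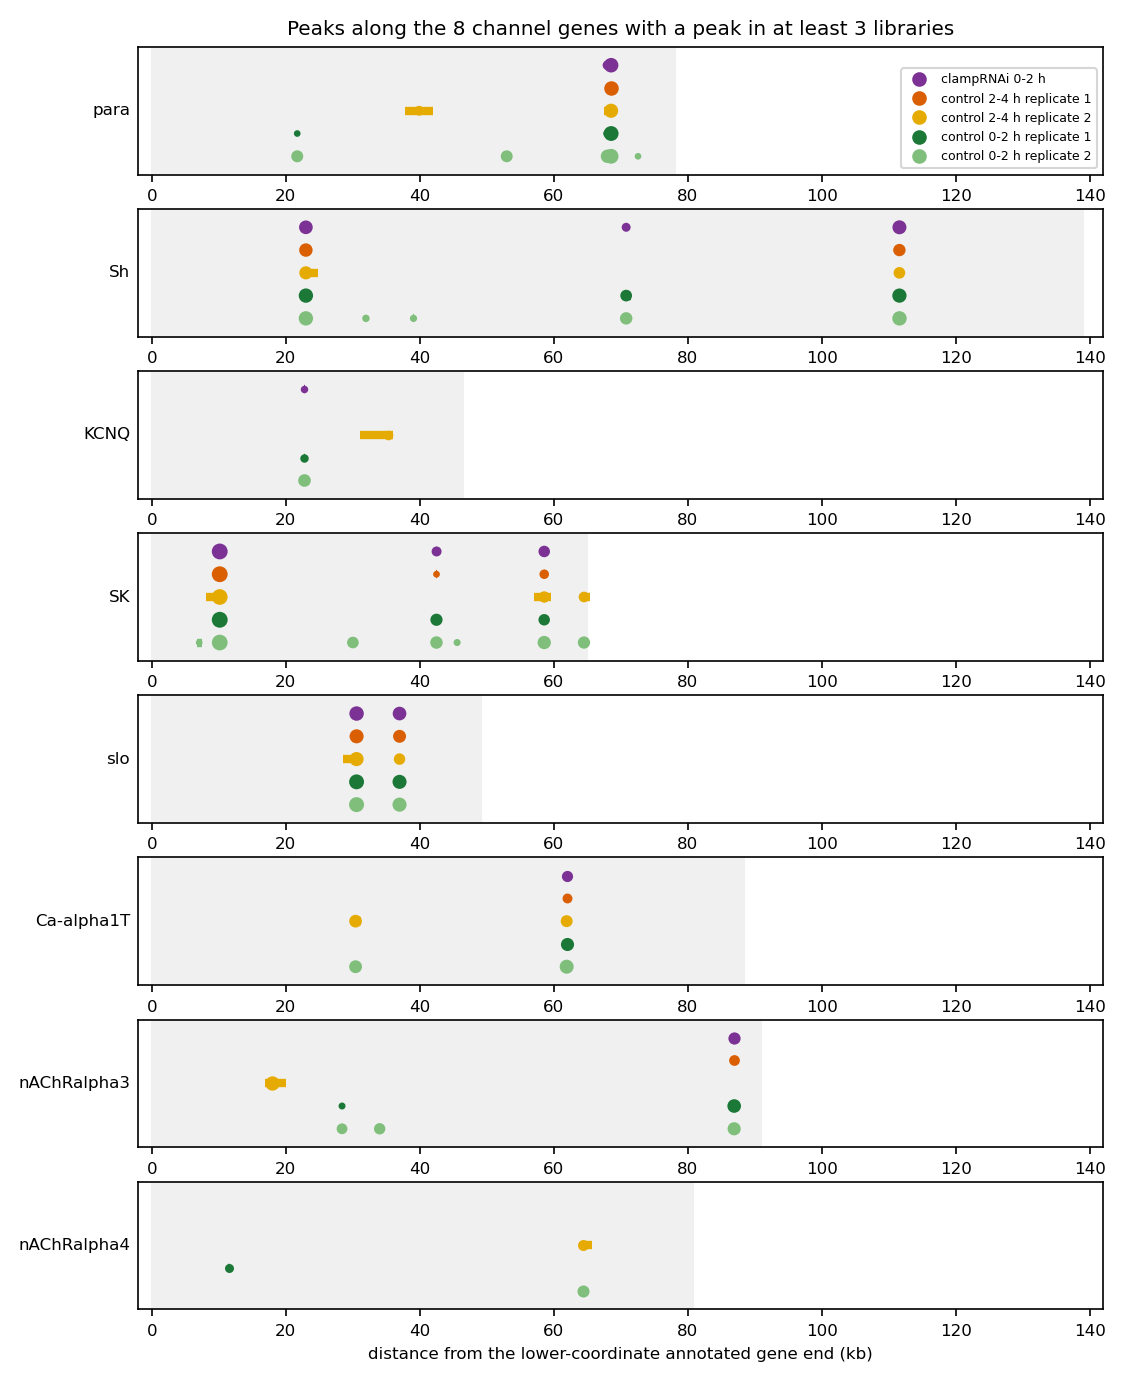
Peaks along the 8 channel genes with a peak in at least 3 libraries, as distance from the lower-coordinate gene end (kb); grey spans the annotated gene, bars give peak width, and dots mark the maximum, larger at higher percentile. Vertical columns of 5 dots mark positions called in all libraries, as in slo (2 columns) and Sh (2 columns), while KCNQ and nAChRalpha3 have none.

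Peaks of the 5 lists that shared at least 1 bp were merged into regions, and 34 of the 2263 regions touched a channel gene. Called in all 5 libraries were 8 of them, 2 each in SK, Sh and slo and 1 each in para and Ca-alpha1T. Over the whole genome 274 of the 2263 regions were called in all 5, a count not matched by arm or gene length. In each of these 8, the maxima of the strongest peaks in the 5 libraries lay within 20 bp of each other, with spreads of 2 to 17 bp, including the broad peaks of 2-4 h replicate 2. This was not particular to channel genes: in 224 of 236 other main-arm regions called in all libraries, 94.9%, the maxima lay equally close. The mean percentile of the 8 regions had a median of 66.2, beside 70.2 for the others.

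**Figure D5:**
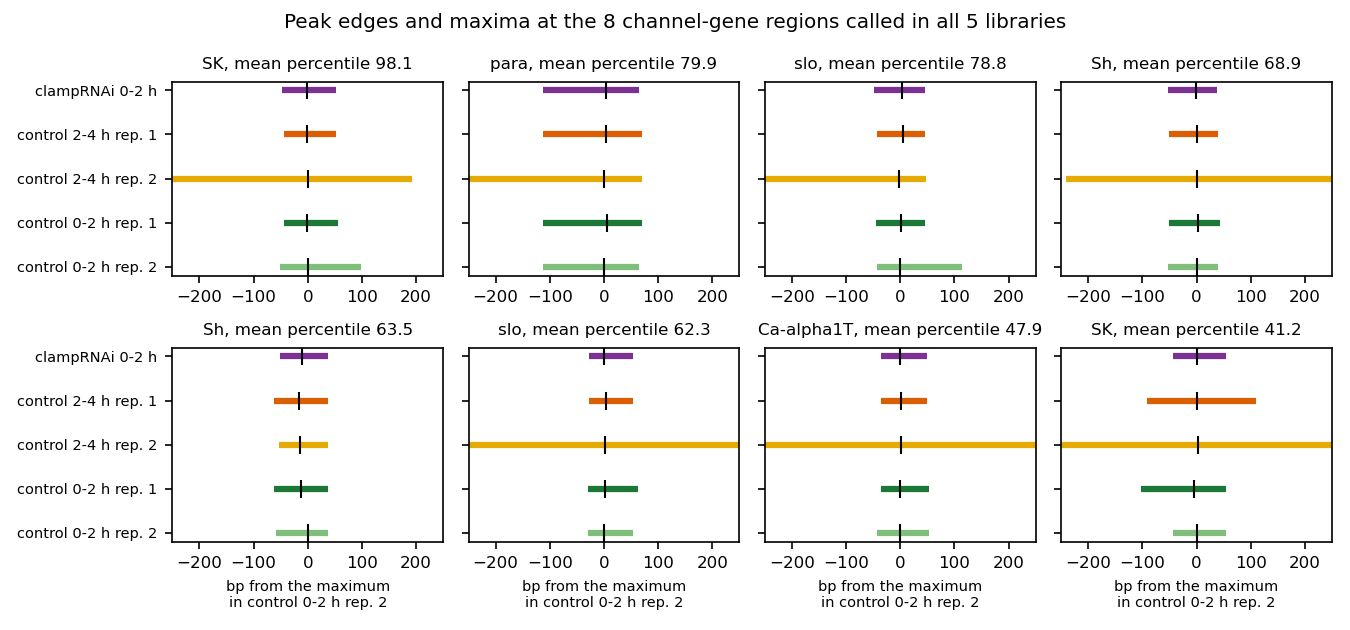
The strongest peak of each library (bars) and the midpoint of its maximum (ticks) at the 8 channel gene regions called in all 5 libraries, in bp from the maximum in 0-2 h control replicate 2. The ticks line up within 17 bp in each panel, and the bars of 2-4 h control replicate 2 run past the 250 bp shown in 7 panels.

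The first comparison asked how the positions of MLE differed after and before the maternal-to-zygotic transition. The number of channel genes with a peak was 8 ± 2.83 in the later controls and 9 ± 1.41 in the early controls (SD, n = 2 each), a difference of -1 (exact two-sided permutation test over libraries, p = 1). With 2 libraries a group the smallest p possible is 0.333, so this test could not pass a threshold of 0.05. Within replicate 1 the later count was lower by 2 genes (-2), and within replicate 2 the difference was 0. Nothing in the labels says that libraries of a group came from separate collections, so the p measures only the spread between these libraries. Regions called in both later controls numbered 8 at channel genes, and they were the same 8 that all libraries shared, so none was called in both later controls and in neither early one. Over the whole genome the number of such regions was also 0, of 276 called in both later controls. Regions called in both early controls and in neither later control numbered 4 of the 14 called in both early controls, in para, Sh, KCNQ and nAChRalpha3, and over the whole genome 165 of 602, a like share. The percentiles of the 4 reached 53.8 at most. 2-4 h replicate 1 had the shortest list, with 370 peaks and 3 regions that no other library called. That list limits what both later controls can share, and whether its length bears on the 4 regions was not tested.

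2-4 h replicate 2 called 5 channel gene regions that no other library called, in para, KCNQ, cac, nAChRalpha3 and nAChRalpha7, each 3255 bp to 4979 bp wide, among 940 such regions genome-wide. Their maximum signals were 10, 9, 15, 52 and 13 in that order, where the median maximum of the list was 53. KCNQ, cac, nAChRalpha3 and nAChRalpha7 entered this library's count of 10 genes through these regions alone. Of the 1589 peaks in that list 7.49% were under 200 bp, and the other 4 lists had 60.0% to 73.2% of theirs under it. Whether list make-up bears on these 5 regions was not tested. 0-2 h replicate 2, the longest of the narrow lists, called 11 channel gene regions alone, among 356 genome-wide. The counts were 0 of 1 after clampRNAi, 0 of 3 in 2-4 h replicate 1 and 1 of 65 in 0-2 h replicate 1.

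The second comparison asked whether MLE positions in early embryos differed with maternal CLAMP depleted. The clampRNAi library had peaks at 7 channel genes, and the early controls at 8 and 10. The group has 1 library, so the difference could not be tested. Of the 14 channel gene regions called in both early controls, 12 were called after clampRNAi, 85.7% (exact 95% interval 57.2% to 98.2%), where 76.4% of 588 other regions were. The pair not called after clampRNAi consisted of weak regions, at 16476687 in para and 8304556 in nAChRalpha3, which stood at percentiles of 1.94 and 3.60 in 0-2 h replicate 1 and of 46.4 and 33.4 in 0-2 h replicate 2. No channel gene region was called after clampRNAi alone. nAChRalpha4, cac and Rdl each had a peak in an early control and none after clampRNAi, but at no position that both early controls shared. The clampRNAi list was also shorter, with 493 peaks against 723 and 1247. With every list kept to 370 peaks, clampRNAi minus early controls went from -2 to 0.5 genes.

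Most peaks lay well inside the channel genes. The midpoint of the maximum was inside the gene and more than 500 bp from either end for 13 of 13 peaks after clampRNAi, for 10 of 10 and 14 of 16 in the later controls and for 16 of 16 and 28 of 29 in the early controls. The exceptions were the SK peak near its upper end and the nAChRalpha7 peak. Peaks at channel genes had a median width of 96 bp after clampRNAi, 94 bp and 2056 bp in the later controls and 118 bp and 79 bp in the early controls. On X, channel genes held 16.7 peaks per Mb after clampRNAi, 13.4 and 20.0 in the later controls and 20.0 and 38.4 in the early controls, and the rest of X, short genes and intergenic sequence included, held 8.59, then 6.80 and 14.5, then 11.1 and 20.1. On autosomes channel genes held 3.49 peaks per Mb after clampRNAi, 2.33 and 4.65 in the later controls and 4.65 and 6.98 in the early controls, and the rest held 2.04, then 1.49 and 6.89, then 2.97 and 5.40. These densities were not matched by gene length, and a few genes held many of the peaks. Of the 23 peaks on X in 0-2 h replicate 2, SK held 7, Sh 5 and para 5.

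A list of 57 other genes held channel genes together with genes for auxiliary subunits and related proteins. Of these 57, 4 had a peak after clampRNAi, 4 and 5 in the later controls and 6 and 6 in the early controls. Genes of similar length on the same arms gave 3.43, 2.91 and 6.68, and 4.06 and 6.18. Those with a peak in all 5 libraries numbered 3, where comparison genes gave 2.44, and were Cngl (X), a cyclic nucleotide-gated channel-like gene, stj (2R), for an auxiliary subunit of calcium channels, and shakB (X), for a gap junction protein of neurons. CARPB (X), a carbonic anhydrase-related gene on the same list, had a peak in 4 libraries. Of 19 channel partners and modulators, 1 had a peak after clampRNAi, 1 and 4 in the later controls and 2 and 4 in the early controls, where comparison genes gave 1.65, 1.29 and 2.79, and 1.96 and 2.83. The gene with a peak in all 5, where comparison genes gave 0.98, was Hk (X), which encodes the beta subunit of the Shaker channel. Its strongest peak stood at percentiles of 70.2 after clampRNAi, 57.3 and 55.8 in the later controls and 78.1 and 81.5 in the early controls. The partner genes next in number of libraries were Nlg2, for a synaptic adhesion protein, and Ncc69, for a chloride cotransporter, each with a peak in 2 libraries, and inaD, for a scaffold of the light response, had 1.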

How the data were processed

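The 5 lists of MLE CUT&RUN peaks, 1 per library, were grouped by sample title. The dm6 build, SEACR 1.3, Bowtie2 2.4.4, Trimmomatic 0.40, bcl2fastq 2.17 and deepTools are named, with no role, in the submitters' processing notes. Each list gives, per peak, the authors' total and maximum signal (coverage), as whole numbers in SEACR's layout; the sources used here do not give the control track, the threshold or any spike-in scaling, and depth is unknown. Signal was therefore used to rank peaks within a list.

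Genes, without strand, exons or sequence, came from RefSeq's table of Release 6 plus ISO1 MT, the assembly dm6 names, so promoters and introns were not separated. Coordinates are 1-based. Members and lists were chosen with earlier results of these data known. Values per library are given for members with a peak in at least 3 libraries, all others are named, and of each related list up to 4 genes with a peak in the most libraries. In the related lists 3 channel and 3 partner symbols were not matched. Intervals are Clopper-Pearson at 95% and cover counting error only. Overlap and comparison counts were computed in Python 3.11.15 with pandas 2.3.3 and scipy 1.17.1 and tested on simulated lists. Alternatives were other flanks, overlap by the maximum, shorter lists, wider peaks, other comparison genes and leaving out libraries.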

Additional observations from a re-analysis of the deposited data

How the results depend on the processing

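The excess of channel genes over genes of similar length kept its sign in all 5 libraries with no flank, a 2000 bp flank, overlap by the maximum, peaks at or above the median signal of each list and all annotated genes for comparison, in 4 with comparison genes of 0.8 to 1.2 times the length, in 4 with lists kept to 370 peaks and in 2 with peaks of at least 200 bp, where it ran from -1.52 to 1.71 genes. With peaks at or above the median signal, channel genes with a peak numbered 4 after clampRNAi and 6 in 2-4 h replicate 2. With 370 peaks per list they numbered 1 in 2-4 h replicate 2 and 5 in 0-2 h replicate 2, clampRNAi minus early controls became 0.5 genes, and 1 region was shared by all libraries. With peaks of at least 200 bp they numbered 1 after clampRNAi, 1 in 2-4 h replicate 1, 10 in 2-4 h replicate 2 and 2 in each early control. The stage difference turned to 3.5 genes, and 0 regions were shared by all. These lists hold fewer peaks by construction, with only 7.49% lost from 2-4 h replicate 2, and the cause was not tested further. Without each library in turn, the stage difference ran from -3 to 1 (1 without 2-4 h replicate 1, 0 without 0-2 h replicate 2, -3 without 2-4 h replicate 2), clampRNAi minus early controls from -3 to -1, and shared regions, chosen as an alternative after seeing the data, from 8 to 10. A count of regions shared by all can hardly fall when a library is left out, so that range is no check on it. With the replicate number as a block the stage difference was -1 (exact sign-flip permutation, p = 1). The within-replicate differences were -2 and 0, so every sign flip gives a difference of the same size and this p is no check. The correlation of replicate differences between the stages was -0.09 over 2263 regions and 0.07 over the 34 at channel genes. The 2263 include 940 regions of 2-4 h replicate 2 alone and 356 of 0-2 h replicate 2 alone, which lower the correlation by construction. It therefore cannot decide whether same-numbered libraries deviate together. The labels do not say that they are pairs, and the numbers were not taken to pair libraries. Unknown depth limits every count.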

Other observations

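Of 15 genes of the transmitter release machinery, which acts downstream of the calcium channels, 2 had a peak after clampRNAi, 0 and 6 in the later controls and 2 and 6 in the early controls, where genes of similar length on the same arms gave 1.09, 0.95 and 3.44, and 1.36 and 2.86. The higher counts stood in both replicates 2, whose lists are the longer ones and which also had peaks at more of all annotated genes. The gene with a peak in the most libraries was brp, for the active zone scaffold Bruchpilot, at percentiles of 12.6 after clampRNAi, 93.5 in 2-4 h replicate 2 and 51.5 and 90.5 in the early controls. Cadps, a vesicle priming gene on chromosome 4, had peaks in 2-4 h replicate 2 and 0-2 h replicate 2 alone, at percentiles of 98.8 and 98.7, and cpx, the complexin gene on 3R, in the same libraries at 94.3 and 92.9. The genes unc-13 (41.8 and 56.1) and Snap25 (16.7 and 33.0), named after their values were seen, also had peaks in that pair of libraries alone, at lower percentiles. Rim, for another active zone protein, had a peak after clampRNAi and in both early controls, at 20.0, 47.9 and 56.5. With 1 or 2 libraries a group, none of these differences was tested.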
